A study of Mus musculus with 6 samples.

Results

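Nuclear genes for subunits of the respiratory chain complexes I to IV, for cytochrome c and for the ATP synthase (complex V) were described in macrophages from mouse bone marrow, with either a wild-type or a mutant receptor chimera. A gene belonged to the set if it was among 45 listed subunit genes, and it was represented by the probe set that the platform annotation gives to that symbol alone and that had the highest mean over the 6 arrays. Of the 45 listed genes, 44 had such a probe set, out of 18193 genes with 1 symbol on the array. All 44 lay above the filter on low intensity, which 10372 genes passed. They comprised 18 genes of complex I, 4 of complex II, 7 of complex III with cytochrome c, 7 of complex IV and 8 of complex V. Cox7b of complex IV had no such probe set and has no value here.

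The respiratory chain sits in the inner mitochondrial membrane and passes electrons from NADH (complex I) and succinate (complex II) through ubiquinone, complex III and cytochrome c to oxygen at complex IV. Complexes I, III and IV pump protons while they do so, and the ATP synthase lets the protons back and makes ATP. A few subunits are encoded in mitochondrial DNA and the others, among them all genes described here, in the nucleus. Osteoclasts, the bone-resorbing cells that form from macrophage precursors under RANK signalling, are known for being rich in mitochondria.

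The study asked which genes depend on the IVVY motif, a short stretch in the cytoplasmic tail of the osteoclast receptor RANK. Bone marrow macrophages of c57BL/6 mice that lacked both TNF receptors (TNFR1-/-R2-/-) received, by retrovirus, a chimera of the outer part of mouse TNFR1 with the membrane-spanning and inner parts of mouse RANK. In the wild-type group this chimera was intact, and in the mutant group the IVVY motif carried inactivating mutations. Total RNA was hybridised to Affymetrix Mouse Genome 430 2.0 arrays, 3 per group.

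Both groups shared the loss of both TNF receptors, the viral infection, selection in puromycin at 2 ug/ml for 3 days, and then M-CSF at 44 ng/ml and TNFα at 10 ng/ml for 24 hours, in cells without a TNF receptor of their own. Each array held RNA pooled from 6 dishes. The 3 arrays of a group came from 3 independent assays, and the replicate number, called the assay here, links 1 mutant and 1 wild-type array. The labels leave it unsaid if each assay had mice of its own, so the errors and p-values given measure only the spread between these arrays, which may be technical. The model is limited in that a virally expressed chimera stands in for RANK and no untreated or empty-vector cells were analysed here.

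Values are the deposited intensities, on a linear scale and comparable between arrays for the same probe set but not between probe sets. Differences are mutant minus wild type on the log2(intensity + 16) scale, either within an assay or as the mean over the 3 assays with limma's standard error (SE, n = 3 against 3). Unless a block is named, the SE comes from the fit that leaves the pairing out, so it includes the spread between assays.

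Macrophage markers were bright on every array, with summed intensities of 132859 to 150732 over 8 genes, and 0 of the 8 were lower or higher in every assay. Of 10 osteoclast markers 8 were above the filter, and all 8 were lower in the mutant in every assay. The 10 summed to between 1128 and 1892 in the mutant and between 8587 and 27452 in the wild type, and Itgb3 and Oscar lay below the filter. Of 11 stromal cell markers 7 were above the filter, with sums of 229 to 493 in assays 1 and 2 and of 7892 (mutant) and 5836 (wild type) in assay 3, and 4 (Dcn, Lum, Thy1 and Pdgfrb) lay below it. The 9 proliferation markers summed to 27900 to 39473 in assay 1, 15768 to 18322 in assay 2 and 6745 to 7398 in assay 3. Of the 7 stromal markers 5 were higher in the mutant in every assay and 0 lower. Granulocyte, erythroid and lymphocyte markers had 1 gene each above the filter. The granulocyte gene was S100a8, with 649, 431 and 128 in the mutant and 604, 677 and 212 in the wild type, and Epor and Ms4a1 stayed at 9.17 to 13.0. The ratio of the 3′ to the 5′ control probe set of Actb, a sign of RNA integrity, was 2.66 on the mutant array of assay 2 and 1.5 to 1.81 on the other 5. That of Gapdh was 1.28 on the same array and 0.745 to 1.04 on the other 5. In bulk RNA, fewer cells of a type and less RNA per cell cannot be told apart.

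No probe set passed Benjamini-Hochberg adjustment at 0.05 in limma without a block (0 of 22497, or 0%) or with the assay as a fixed block (0 of 22497, or 0%). With the assay as a random block limma called 1 of 22497 (0.00445%), which was none of the 44 genes. For the 44 genes the smallest adjusted p by limma was 1 without a block, 0.859 with the fixed block and 0.916 with the random block. Before adjustment, at a limit of 0.05, limma without a block had 1 of the 44 genes lower (Atp5b) and 0 higher, and 0.649% of all kept probe sets lower. With the fixed block it had 2 of the 44 lower (Ndufa10 and Atp5b) and 0 higher, and 2.78% of all kept probe sets lower. With the random block it had 10 of the 44 lower (Ndufa10, Sdha, Sdhc, Uqcrfs1, Cyc1, Cox5a, Atp5a1, Atp5b, Atp5c1 and Atp5o) and 0 higher, and 2.83% of all kept probe sets lower. No respiratory chain or ATP synthase gene can therefore be said to have changed by the threshold used here, and what follows gives levels and differences.

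The differences lay mostly on the same side. The mean was lower in the mutant for 41 of the 44 genes (93.2%), against 48.3% of all kept probe sets and 51.8% of those with a mean intensity above 500. The 3 genes with a higher mean were Ndufa5, Cox6c and Cox7c. In every assay the mutant was lower for 18 of the 44 (40.9%), against 11.7% of all kept probe sets and 14.1% of those above 500. The mutant was higher in every assay for 0 of the 44, against 13.8% of all kept probe sets. In 5 genes (11.4%) all mutant arrays lay below all wild-type arrays, against 1.59% of all kept probe sets, and these were Cox5a, Atp5a1, Atp5b, Atp5d and Atp5o. The differences were small: the median was -0.17 and the range -0.38 to 0.12, with SEs from 0.10 to 0.38, while the median over all kept probe sets was 0.00. The 44 genes were read on the same 6 arrays and shared much of their variation, so they are not independent observations. The comparison with all probe sets is a description and not a test of the set.

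The assays differed. In assay 1 the mutant was lower for 22 of the 44 genes and the median difference was 0.00, where 52.9% of all kept probe sets were lower. In assay 2 it was lower for 37 of the 44 with a median of -0.21, against 45.9% of all kept probe sets. In assay 3 it was lower for 43 of the 44 with a median of -0.28, against 46.4%. Over all kept probe sets the median within an assay was -0.01, 0.01 and 0.01. Without assay 1 the number of genes lower in each remaining assay was 37, where 18 were lower in every assay. Without assay 2 it was 21, and without assay 3 it was 18. With fewer assays to meet, such a count can only stay or rise. Shares over all kept probe sets are not given for it. The osteoclast markers had median differences of -1.71 in assay 1, -1.51 in assay 2 and -3.15 in assay 3. Like the 44 genes they had their lowest median in assay 3, and they were far lower in the mutant also in assay 1. The proliferation markers had medians of 0.30, -0.76 and 0.16 and the stromal markers 0.05, 0.15 and 0.45. S100a8 had differences of 0.10, -0.63 and -0.67. It was the only 1 of 7 granulocyte markers above the filter, so it does not stand for that list. The part of these markers in the respiratory chain values was not tested.

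**Figure D1:**
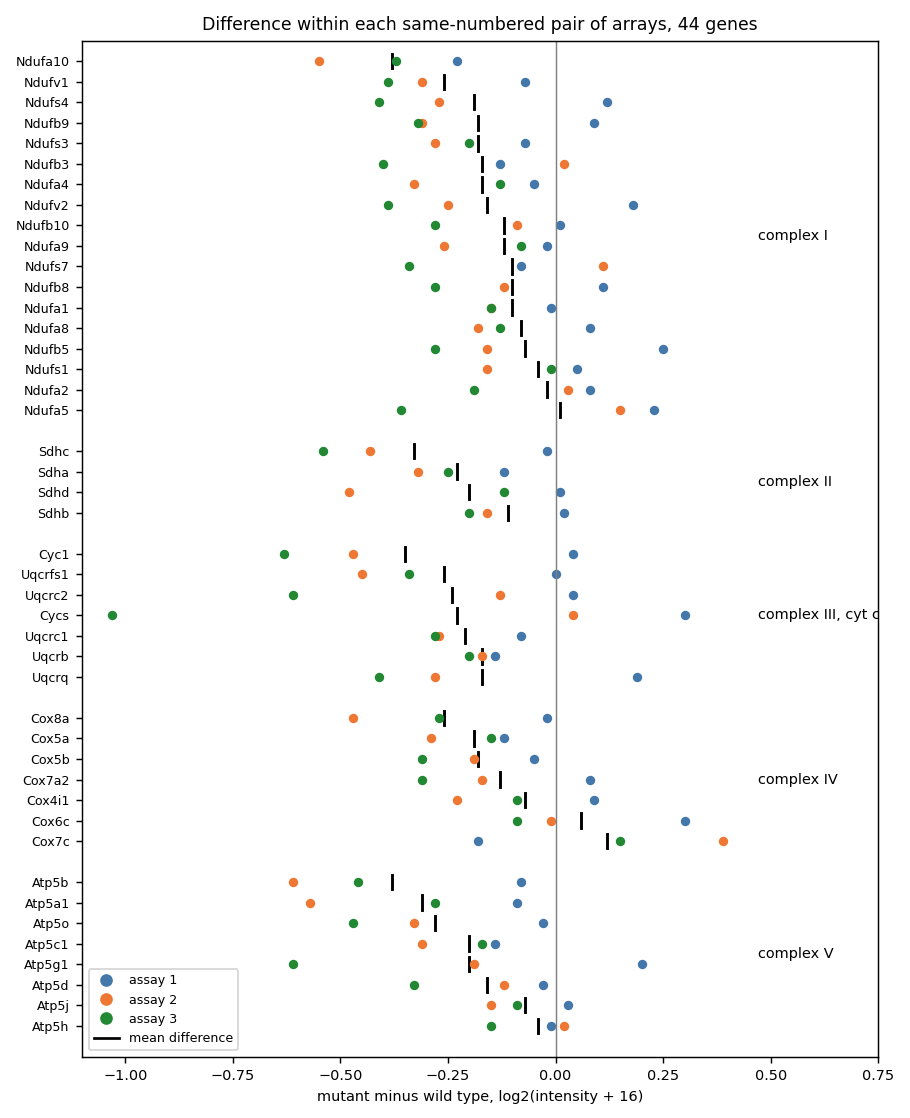
Mutant minus wild-type difference on the log2(intensity + 16) scale (x axis) of the 44 genes (y axis, grouped by complex) within assay 1, 2 and 3 (coloured points), with the mean of the 3 as a black bar. The points of assay 1 lie on both sides of 0 (22 genes lower), while 37 genes in assay 2 and 43 in assay 3 lie below it.

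Promoter sequences are shown for the genes with the smallest p of complexes I, IV and V, so that the letters of the start regions can be read beside these genes' values. They are the 250 bases before the annotated start, 5′ to 3′ on the gene's strand, from RefSeq (assembly GRCm38.p6), with CCAAT boxes and GC boxes (GGGCGG) on either strand in capitals. Ndufa10 lies on the minus strand, with its window at chr1:92473759-92474008. Cox5a and Atp5b lie on the plus strand, with windows at chr9:57520982-57521231 and chr10:128083057-128083306. Sdhc and Cyc1, the genes with the smallest p of complexes II and III, are named only.
Ndufa10: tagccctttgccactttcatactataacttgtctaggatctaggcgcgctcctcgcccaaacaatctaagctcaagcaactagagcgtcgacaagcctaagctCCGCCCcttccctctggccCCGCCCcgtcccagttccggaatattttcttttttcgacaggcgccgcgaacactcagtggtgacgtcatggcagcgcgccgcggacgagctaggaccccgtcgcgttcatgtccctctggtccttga
Cox5a: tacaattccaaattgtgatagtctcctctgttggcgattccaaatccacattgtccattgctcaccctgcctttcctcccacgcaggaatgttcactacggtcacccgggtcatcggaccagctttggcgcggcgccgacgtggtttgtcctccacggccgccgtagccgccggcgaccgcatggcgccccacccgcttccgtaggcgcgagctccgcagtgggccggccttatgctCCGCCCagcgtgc
Atp5b: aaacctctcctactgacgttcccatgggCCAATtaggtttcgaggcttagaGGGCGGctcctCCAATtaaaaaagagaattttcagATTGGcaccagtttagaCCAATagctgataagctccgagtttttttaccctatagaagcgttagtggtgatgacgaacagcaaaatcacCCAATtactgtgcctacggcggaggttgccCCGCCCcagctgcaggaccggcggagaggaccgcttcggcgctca

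The Atp5b window stands apart from the other windows printed here by 5 CCAAT boxes beside 2 GC boxes, while that of Ndufa10 holds 2 GC boxes and no CCAAT box. The GC share was 57.6% for Ndufa10, 63.2% for Cox5a and 51.6% for Atp5b. The RefSeq table held 38 windows, of 250 bases before to 50 after the start, for 34 of the 45 genes, and 32851 windows in all. Searched on both strands, the motif GCGCATGC of the nuclear respiratory factor NRF1 was in 4 of the 38 windows (10.5%) and in 2.71% of all windows. These 4 belonged to Ndufa8, Sdhb, Uqcrc1 and Cycs. The ETS core CCGGAAG, which the factor GABP can bind, was in 6 windows (15.8%) and in 8.86% of all, and AAGATGG, a core of YY1 sites, was in 6 (15.8%) and in 6.34% of all. The site AAGGTCA of the oestrogen-related receptors was in 1 window (2.63%), that of Sdhd, and in 4.72% of all. CCAAT was in 11 windows (28.9%) against 37.4% of all, and GGGCGG in 15 (39.5%) against 35.7%. None of NRF1, ETS, YY1 or oestrogen-related receptor motifs was in the windows of Ndufa10, Cox5a and Atp5b, which says only that those letters are not there. Windows of a gene with several starts overlap or neighbour each other, and no motif searched contains another.

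Complex I, the NADH dehydrogenase, had a median difference of -0.12 over its 18 genes, from -0.38 to 0.01, and the mutant mean was the lower for 17. The medians by assay were 0.03, -0.17 and -0.28, with 8, 14 and 18 of the 18 lower. The mutant was lower in every assay for 6 genes: Ndufa1, Ndufa4, Ndufa9, Ndufa10, Ndufs3 and Ndufv1. Ndufa4 is listed here by its name, though its product is now regarded as a partner of complex IV.

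Ndufa10, an accessory subunit of the membrane arm, had the largest difference of complex I. Its intensity in assays 1, 2 and 3 was 1693, 1595 and 1275 in the mutant and 1992, 2338 and 1656 in the wild type. The mutant was lower in each assay, though the highest mutant array lay above the lowest wild-type array. The mean difference was -0.38 with an SE of 0.18 and a 95% interval from -0.84 to 0.07, a level 23.4% lower, and the SE was 0.10 with the assay as a block. Ndufs4, an accessory subunit of the arm that takes up electrons, had 850, 715 and 782 in the mutant and 783, 864 and 1048 in the wild type. In assay 1 its mutant array was the higher of the pair, and in assays 2 and 3 the lower, with a mean difference of -0.19 (SE 0.14). Ndufb3, another accessory subunit of the membrane arm, had 1843, 1981 and 1495 in the mutant and 2014, 1958 and 1972 in the wild type. Its wild-type arrays lay close together, and the low array was the mutant of assay 3, with a mean difference of -0.17 (SE 0.13).

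The core subunits of complex I, which carry the flavin and iron-sulphur centres or the folds around them, had differences of -0.26 (SE 0.21) for Ndufv1, -0.16 (SE 0.15) for Ndufv2, -0.04 (SE 0.10) for Ndufs1, -0.18 (SE 0.14) for Ndufs3 and -0.10 (SE 0.24) for Ndufs7. Ndufv1, the subunit that binds NADH, had 1118, 1473 and 1085 in the mutant and 1172, 1824 and 1432 in the wild type. For Ndufv1 the wild-type array of assay 2 was the highest and the groups overlapped. Ndufs1, the largest core subunit, had 917 to 1087 in the mutant and 1000 to 1052 in the wild type, with a 95% interval of the difference from -0.29 to 0.21. Ndufa5, an accessory subunit of the matrix arm, was the only gene of complex I with a higher mean in the mutant, 0.01 (SE 0.24). Its values were 2415, 2860 and 1624 in the mutant and 2056, 2574 and 2094 in the wild type, higher in the mutant in assays 1 and 2 and lower in assay 3. The median of complex I was -0.01 without the mutant array of assay 3, -0.04 without the wild-type array of assay 2, and -0.06 without assay 3. It was -0.19 without the mutant array of assay 2 and -0.20 without assay 1.

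Complex II, the succinate dehydrogenase, had a median difference of -0.21 over 4 genes, each with its lower mean in the mutant. Its medians by assay were -0.01, -0.38 and -0.23. Sdhc, a membrane anchor, had 2034, 1442 and 1249 in the mutant and 2066, 1950 and 1828 in the wild type. The mutant arrays of assays 2 and 3 lay below all wild-type arrays, while that of assay 1 was the second highest of the 6. The mean difference of Sdhc was -0.33 with an SE of 0.20 and a 95% interval from -0.84 to 0.17. Sdha, the flavoprotein that oxidises succinate, had 2052, 1896 and 2366 in the mutant and 2235, 2377 and 2815 in the wild type. It was lower in the mutant in every assay, by differences of -0.12, -0.32 and -0.25, with a mean of -0.23 (SE 0.14), and both groups were highest in assay 3. Sdhd, the other membrane anchor, had 972, 886 and 1131 in the mutant and 968, 1240 and 1229 in the wild type, with a mean difference of -0.20 (SE 0.15). Sdhb, the iron-sulphur subunit, had 3735, 4033 and 4305 in the mutant and 3671, 4519 and 4952 in the wild type, with -0.11 (SE 0.14), the difference nearest to 0 in complex II. In assay 1 Sdhd and Sdhb were level between the groups (0.01 and 0.02).

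Complex III and cytochrome c had the lowest median of the groups of subunits, -0.23 over 7 genes, each lower in the mutant by its mean. The medians by assay were 0.04, -0.27 and -0.41, and 2 of the 7, Uqcrc1 and Uqcrb, were lower in every assay. Without the mutant array of assay 3 the median was -0.08, and without assay 3 it was -0.15. It was -0.37 without the mutant array of assay 1 or without all of assay 1. The medians of the 5 complexes, -0.12 to -0.23, lay closer together than the 3 assay medians did within any complex, and differences between complexes were not tested.

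Cyc1, the cytochrome c1 that hands electrons to cytochrome c, had 2769, 2487 and 2370 in the mutant and 2688, 3460 and 3670 in the wild type. In assay 1 the arrays were level (0.04), and in assays 2 and 3 the mutant was lower by differences of -0.47 and -0.63. The mean difference of Cyc1 was -0.35 (SE 0.15, 95% interval -0.74 to 0.03). Uqcrfs1, the Rieske iron-sulphur protein, had 1955, 1398 and 1481 in the mutant and 1951, 1919 and 1876 in the wild type. Its wild-type arrays were nearly equal and the mutant of assay 1 matched them, whereas the other mutant arrays lay below, giving a mean difference of -0.26 (SE 0.15). Uqcrc2, a core protein of the complex, had 4111, 4614 and 3817 in the mutant and 4008, 5042 and 5855 in the wild type, with -0.24 (SE 0.17). Uqcrq, a small subunit near the ubiquinone site, had 1780, 1459 and 926 in the mutant and 1562, 1779 and 1235 in the wild type, with -0.17 (SE 0.28).

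Cycs, the electron carrier cytochrome c, differed most between assays. Its intensity was 7176, 5594 and 3213 in the mutant and 5819, 5446 and 6597 in the wild type. The mutant array of assay 1 was the highest of the 6 and that of assay 3 the lowest. The differences were 0.30, 0.04 and -1.03, and their mean of -0.23 had an SE of 0.31, so the sign of the mean rests on assay 3. Its 3 kept probe sets each had a positive difference in assay 1 and a negative one in assay 3, of -1.03, -1.29 and -0.92. Their means were -0.23, -0.38 and -0.15.

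**Figure D2:**
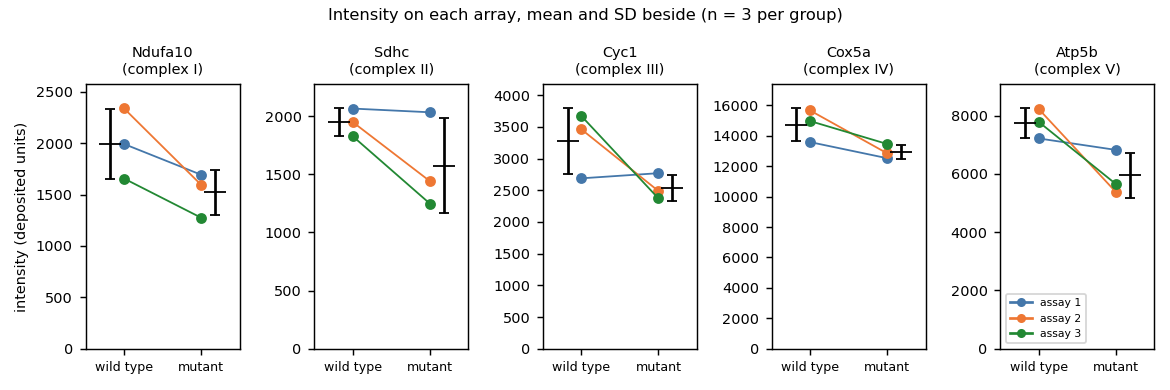
Intensity (y axis, deposited linear units, from 0) on the wild-type and mutant array of each assay (joined points) for the gene with the smallest p of each complex, with the group mean and SD (n = 3) beside the points. Atp5b had separate ranges, 5380 to 6826 in the mutant and 7219 to 8227 in the wild type, while Sdhc and Cyc1 were level in assay 1.

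Complex IV, the cytochrome c oxidase, had a median difference of -0.13 over 7 genes, 5 of them lower in the mutant by their mean. The medians by assay were -0.02, -0.19 and -0.15. Cox5a, a nuclear-coded subunit on the matrix side, had 12521, 12841 and 13455 in the mutant and 13580, 15657 and 14962 in the wild type. All mutant arrays lay below all wild-type arrays. The difference was small, -0.19 with an SE of 0.10 and a 95% interval from -0.43 to 0.06. Cox8a, a small membrane subunit, had 1015, 1080 and 873 in the mutant and 1032, 1504 and 1058 in the wild type, with -0.26 (SE 0.19), and the wild-type array of assay 2 stood above the other 5. Cox7a2, the form of this subunit found outside muscle, had 7434, 7528 and 5755 in the mutant and 7028, 8444 and 7147 in the wild type, with -0.13 (SE 0.15). Cox4i1, the widely expressed form of subunit 4, differed by -0.07 (SE 0.10), with 13843 to 15412 in the mutant and 14460 to 16185 in the wild type. Cox5b, which binds zinc, was lower in every assay, by -0.05, -0.19 and -0.31.

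Cox6c and Cox7c had higher means in the mutant. Cox6c had 5557, 6522 and 5275 in the mutant and 4523, 6586 and 5606 in the wild type. The low array was the wild type of assay 1, and without it the difference was -0.08 instead of 0.06 (SE 0.18). Cox7c was dim, with 44.7, 99.0 and 120 in the mutant and 52.9, 71.9 and 106 in the wild type. Both groups were lowest in assay 1, and the difference of 0.12 had the largest SE of the 44 genes without a block, 0.38. With the assay as a block its SE was 0.14. Without the wild-type array of assay 2 the median of complex IV was -0.05, and without the mutant array of assay 3 it was -0.06. Without assay 3 it was -0.07, and without assay 1 it was -0.22.

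Complex V, the ATP synthase, held 4 of the 5 genes of the set whose groups did not overlap (Atp5a1, Atp5b, Atp5d and Atp5o). Of all kept probe sets, 1.59% had every mutant array below every wild-type array. In assay 1 the differences of these 4 genes were only -0.03 to -0.09. With the second probe sets of Atp5a1, Atp5d and Atp5o the groups did overlap. The mutant mean was the lower for all 8 genes, with a median difference of -0.20 and a range from -0.38 to -0.04, and 5 were lower in every assay. The medians by assay were -0.03, -0.25 and -0.31, with 6, 7 and 8 of the 8 lower. Without the mutant array of assay 3 the median was -0.12, and without assay 3 it was -0.13. It was -0.32 without the mutant array of assay 1 or without all of assay 1.

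The lowest mean differences of complex V were those of the catalytic head. Atp5b, the β subunit that carries the catalytic sites, had 6826, 5380 and 5654 in the mutant and 7219, 8227 and 7786 in the wild type. The mutant of assay 1 lay close under the lowest wild-type array, and the other mutant arrays lay well below. The means were 5953 ± 768 and 7744 ± 505 (SD, n = 3 each), and the difference was -0.38 with an SE of 0.13 and a 95% interval from -0.71 to -0.06. This was the only one of the 44 unadjusted intervals without a block that did not include 0, and after adjustment by limma the p was 1. The differences within assays were -0.08, -0.61 and -0.46. Atp5a1, the α subunit that alternates with β in the head, had 5851, 4590 and 4971 in the mutant and 6225, 6805 and 6048 in the wild type, a difference of -0.31 (SE 0.13, 95% interval -0.63 to 0.01). In Atp5a1 as in Atp5b the widest gap was in assay 2. The mutant array of that assay had the highest 3′ to 5′ ratios of the control probe sets, and the part of RNA integrity was not tested. Atp5c1, the γ subunit of the rotating stalk, had 5839, 5281 and 4821 in the mutant and 6420, 6558 and 5409 in the wild type, lower in every assay with a mean of -0.20 (SE 0.13). Atp5d, the δ subunit at the foot of that stalk, had 2499 to 2846 in the mutant and 2915 to 3155 in the wild type, with a mean difference of -0.16 (SE 0.10).

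Among the genes of the stator and the membrane part, Atp5o, the subunit that confers oligomycin sensitivity, had 2964, 2619 and 2219 in the mutant and 3025, 3288 and 3083 in the wild type. The groups of Atp5o did not overlap, but in assay 1 the gap was only -0.03, and the mean was -0.28 (SE 0.13). Atp5g1, a gene for the ring-forming subunit c, had 1671, 1567 and 858 in the mutant and 1454, 1788 and 1322 in the wild type, and its mean of -0.20 had an SE of 0.29. Its low array was the mutant of assay 3. Atp5h and Atp5j of the peripheral stalk were nearest to 0, with -0.04 (SE 0.14) and -0.07 (SE 0.16), and Atp5h had 10186 to 12849 in the mutant and 10591 to 12642 in the wild type. With the assay as a block both SEs were 0.08.

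Across arrays the assay, with 3 levels, took up more of the variation of most genes than the receptor did. The assay accounted for 1.80% to 93.0% of a gene's sum of squares on the log2 scale, with a median of 60.2%. The receptor accounted for 0.0136% to 72.7%, with a median of 20.0%. With more levels, the assay would take up the larger share also without any effect, so the shares are not like for like. Shares over all kept probe sets are not given here, so neither median by itself shows an effect. Atp5b had the highest share for the receptor, and Cyc1 (57.4%), Cox5a (65.2%), Atp5a1 (65.0%), Atp5d (59.3%), Atp5o (54.7%) and Ndufa10 (51.0%) also exceeded 50%. Ndufa4 had the highest share for the assay. The highest array was 1.17 to 2.68 times the lowest, with a median of 1.48. The mutant array of assay 3 was the lowest of the 6 for 30 of the 44 genes, and the wild-type array of assay 2 was the highest for 26. Assay 3 as a whole lay below the mean of all arrays for 35 genes, assay 1 for 18 and assay 2 for 8. Assay 3 was also the one with the high stromal and low proliferation markers, and their part in these levels was not tested.

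**Figure D3:**
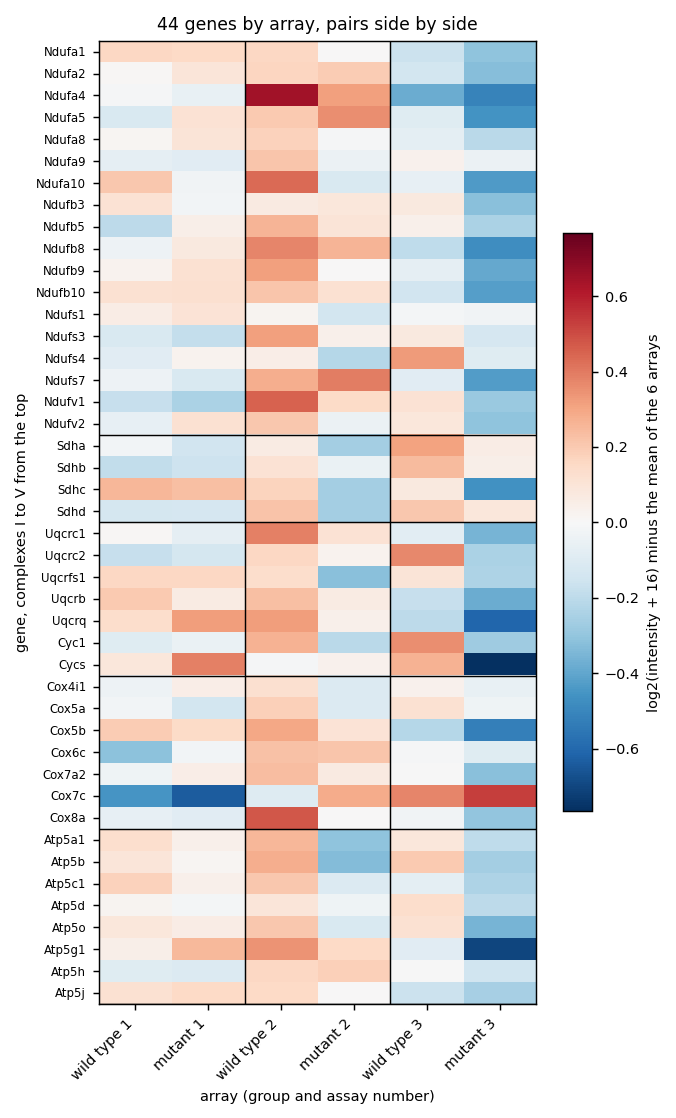
Deviation of log2(intensity + 16) from the mean of the 6 arrays (colour, log2 units) for the 44 genes (rows, complexes I to V separated by lines) on each array (columns, the pair of an assay side by side). The mutant array of assay 3 is the lowest for 30 genes and the wild-type array of assay 2 the highest for 26. Cox7c, Sdha, Sdhb, Sdhd and Ndufs4 are among the genes that run the other way, with assay 3 above the other assays.

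Other probe sets of the same genes mostly lay on the same side. The 44 genes had 80 kept probe sets, of which 71 were lower and 9 higher in the mutant by their mean, and 25 genes had more than 1. These counts include the 44 probe sets used above, of which 41 were lower and 3 higher. In 8 of the 25 the kept probe sets differed in sign, and in 4 of these at a mean intensity above 500: Cox6c, Ndufa5, Ndufv2 and Sdhd. Cox6c gave 0.06 with its brightest and -0.14 (SE 0.12) with its other probe set. Sdhd gave -0.20 and 0.11 (SE 0.13) with probe sets of almost the same brightness, 1071 and 1053. Ndufv2 gave -0.16, -0.12 and 0.03, and Ndufa5 gave 0.01 and -0.04. In Atp5a1, Atp5c1, Cox7c and Ndufs4 the sign turned only with dim probe sets. For Atp5a1 the second probe set gave -0.16 (SE 0.13) and a dim one 0.14 (SE 0.28). Cox5a gave -0.19, -0.09 and -0.32 with its 3 probe sets. Of the 44 probe sets used, 2 carry the suffix that marks probes shared with other genes' sequences and 5 the suffix that marks probes shared between transcripts or related genes, so the signal of close relatives cannot be told apart there.

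The 31 further subunits tested, nuclear genes of complexes I, III, IV and V outside the set, had a median of -0.07, and for 26 the mutant mean was the lower. Their medians by assay were 0.10, -0.12 and -0.19, and 7 were lower in every assay. None passed in limma in any of the 3 fits. Before adjustment, at 0.05, it had 0 of the 31 without a block and 1 with the fixed block, lower in the mutant, and 1 with the random block. Of all kept probe sets, 0.649%, 2.78% and 2.83% were lower in the mutant at that limit in these 3 fits, so the counts stay near the background. Atp5g3, another gene for subunit c, had 9775, 8951 and 8094 in the mutant and 10835, 10898 and 10202 in the wild type, without overlap, and a difference of -0.26 (SE 0.11). Ndufc2 of complex I (-0.24, SE 0.19), Uqcr10 of complex III (-0.23, SE 0.18) and Cox7a2l, a factor of supercomplex formation (-0.22, SE 0.18), lay below the median of the 44 genes. The dim Atp5s had 0.21 (SE 0.16). Of 7 subunit isoforms restricted to muscle, testis or other tissues, 3 were above the filter, with differences from -0.07 to 0.18. The 31 assembly factors, which build the complexes and are not part of them, had a median of -0.08, with 23 lower, 9 of them in every assay. Uqcc1, an assembly factor of complex III, had the smallest p among them, with -0.30 (SE 0.18).

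The citric acid cycle and pyruvate dehydrogenase, which feed electrons to the chain, had a median of -0.24 over 15 genes, with 12 lower and 9 lower in every assay. Their medians by assay were -0.09, -0.18 and -0.34, and none of the 15 passed in limma. Idh3g, a subunit of isocitrate dehydrogenase, had 2339, 1858 and 2390 in the mutant and 2707, 2920 and 2571 in the wild type, without overlap, and -0.32 (SE 0.14). Mdh2, the mitochondrial malate dehydrogenase, had 6286, 6161 and 5192 in the mutant and 6560, 7041 and 9445 in the wild type, also without overlap, and -0.37 (SE 0.18). The wild-type array of assay 3 stood above the other 5 for Mdh2.

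Genes of the mitochondrial ribosome, of import and of membrane carriers gave medians from -0.04 to -0.14. The 22 genes of the mitochondrial ribosome had -0.04, with 13 lower, and medians by assay of 0.18, -0.05 and -0.22. Mrps35, of its small subunit, had the smallest p, with -0.30 (SE 0.14). The 13 genes of import and mitochondrial chaperones had -0.11, and medians by assay of 0.22, -0.15 and -0.31, with 12 higher in assay 1 and 13 lower in assay 3. Hspd1, the mitochondrial chaperonin, had -0.30 (SE 0.20). The 7 carriers of the inner and outer membrane had -0.14, with 7 lower. Slc25a5, an ADP/ATP carrier that exports the ATP made, had 10580, 7488 and 8147 in the mutant and 11615, 10389 and 9881 in the wild type, and -0.29 (SE 0.16). None of these genes passed in limma.

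**Figure D4:**
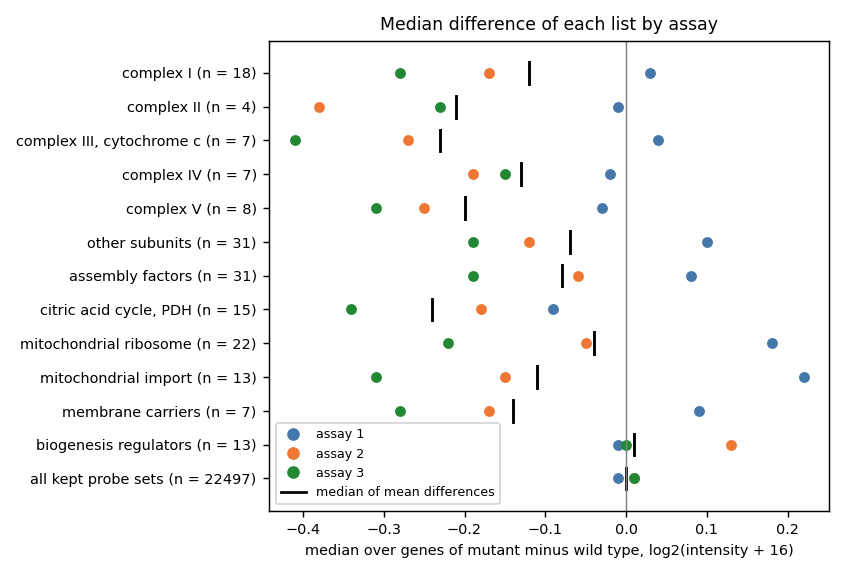
Median mutant minus wild-type difference on the log2(intensity + 16) scale (x axis) of the genes of each complex and of the other mitochondrial lists (y axis, with the number of genes tested) within assay 1, 2 and 3 (coloured points), and the median of the mean differences (black bars). In assay 1 the medians of the 5 complexes lie from -0.03 to 0.04 and those of the ribosome and import lists at 0.18 and 0.22, whereas in assays 2 and 3 all mitochondrial lists drawn but the biogenesis regulators lie below 0.

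The regulators of mitochondrial biogenesis did not share a side, with 4 lower and 9 higher of 13 tested and a median of 0.01. Ppargc1b, a coactivator (PGC-1β) known to drive mitochondrial biogenesis in osteoclasts, had the largest difference. Its intensity was 88.3, 90.4 and 169 in the mutant and 117, 307 and 400 in the wild type. The mutant was lower in each assay, by differences of -0.35, -1.60 and -1.17, and the mutant of assay 3 lay above the wild type of assay 1. The mean was -1.04 with an SE of 0.50, and the adjusted p by limma was 1 without and 0.859 with the block. Its related coactivator Ppargc1a was at 7.41 to 8.33 on all arrays, below the filter, and Pprc1, the third of the family, had 0.28 (SE 0.16).

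Of the factors that bind respiratory gene promoters, Esrra, the oestrogen-related receptor α, had -0.03 (SE 0.15), Gabpa had 0.06 (SE 0.17) and Yy1 had 0.01 (SE 0.10). Nrf1 had 0.19 (SE 0.23), with 231, 210 and 138 in the mutant and 194, 166 and 137 in the wild type, higher in the mutant in every assay by 0.23, 0.31 and 0.01. Tfam, the packaging and transcription factor of mitochondrial DNA, had 454, 505 and 479 in the mutant and 457, 509 and 545 in the wild type, with -0.07 (SE 0.11). The arrays measure the factors' RNA and not their activity.

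The osteoclast genes show the scale of the difference between the same arrays. Acp5, the tartrate-resistant acid phosphatase, had 505, 220 and 818 in the mutant and 4462, 3745 and 9497 in the wild type, a difference of -3.54 (SE 0.59). Mmp9, a matrix metalloproteinase, had -4.88 (SE 0.89) and Ctsk, the bone-degrading cathepsin K, -3.82 (SE 0.81). In assay 1 Acp5 differed by -3.10 and Atp5b by -0.08, in assay 2 by -4.00 and -0.61, and in assay 3 by -3.51 and -0.46. Sparc and Col3a1, stromal matrix genes, were at 7.16 to 57.4 in assays 1 and 2 and at 380 to 1325 in assay 3. In assay 2 the mutant was the higher for both, with 57.4 against 17.3 for Sparc and 31.9 against 8 for Col3a1. The same held in assay 3, with 1325 against 1061 and 524 against 380. In assay 1 Sparc had 12 against 7.81, and Col3a1 was level (7.18 against 7.16).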

How the data were processed

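Per the labels, RNA of mouse bone marrow macrophages was hybridised to 6 Affymetrix Mouse Genome 430 2.0 arrays, 3 with the mutant and 3 with the wild-type chimera. The deposited values are intensities, 1 per probe set and array, on a linear scale. GCOS and GCRMA are named in the submitters' processing notes, with versions and their combination not given in the sources used here. GCRMA normalizes between arrays, so a shift of all genes would not be seen, and it compresses dim probe sets. The 75th percentiles of kept probe sets were 160 to 164, and no further normalization was applied. Precision is limited by the number of arrays.

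Of 45101 probe sets, 64 controls were left out, and of the other 45037 the platform annotation gave 34945 exactly 1 symbol, 932 several and 9160 none. Intensities were transformed to log2(intensity + 16), which understates the differences of dim genes. Probe sets above percentile 50 of their array on at least 3 arrays were kept (22497). The two-sided test was limma's (version 3.58.1, under R 4.3.3), with lmFit, eBayes and no block, and p-values were adjusted by Benjamini-Hochberg over all kept probe sets, at 0.05. The code was tested on simulated data.

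The labels describe 3 independent assays. After subtraction of the group means, arrays with the same number correlated at 0.797, 0.671 and 0.845, which, with the labels, pairs the arrays by number. Mutant with wild-type arrays of another number correlated at -0.618 to -0.0138. The subtraction by itself sets negative values beside positive ones, so these add no separate support. Fits with the assay as a fixed or random block (duplicateCorrelation), other pseudocounts, filters, quantile normalization, other probe sets per gene and leaving out arrays were alternatives. The share among probe sets above 500 was added after seeing the data.

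Members and lists were chosen with earlier results of these data known. The genes named were, per complex, the 3 with the smallest p and the one with the most positive difference, those whose kept probe sets differed in sign, up to 2 per other list by p, and preset regulators and markers. Ndufv1, Ndufs1, Ndufs3, Ndufs7, Cycs, Cox4i1, Cox5b, Atp5d, Atp5g1 and Atp5j are named for their role or level, chosen after their values were seen. Promoter windows came from RefSeq (GRCm38.p6), and motifs were searched by exact match.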

Additional observations from a re-analysis of the deposited data

How the results depend on the processing

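With the assay as a replicate block, which pairs the arrays, limma called 0 probe sets and 0 of the 44 genes, as it did without the block. With a random replicate block it called 1 probe set. Leaving out arrays or assays gave 0 calls in each case, 18 to 37 genes lower in every remaining assay, and medians from -0.20 to -0.01 for complex I, -0.30 to -0.14 for II, -0.37 to -0.08 for III with cytochrome c, -0.22 to -0.05 for IV and -0.32 to -0.12 for V. Of the genes named by the rule, Ndufa5 ranged from -0.17 to 0.24, Cox6c from -0.08 to 0.19, Cox7c from -0.11 to 0.47, Atp5h from -0.15 to 0.02 and Uqcrq from -0.37 to 0.09, and the other 18 kept a negative sign. Of these, Cox8a was -0.08 without the wild-type array of assay 2, Uqcrc2 -0.05 without assay 3, and Ndufb3 -0.05, Ndufv2 -0.04 and Cox7a2 -0.01 without the mutant array of assay 3. Without the wild-type array of assay 3 Ndufs4 was -0.07 and Sdhb -0.02, and without assay 2 Sdhd was -0.06. With the mean over a gene's probe sets the sign turned for Cox6c (-0.04), Cox7c (-0.07), Ndufa5 (-0.02) and Ndufs4 (0.01). With the dimmest kept probe set it turned for Atp5a1 (0.14), Atp5c1 (0.01), Cox6c (-0.14), Cox7c (-0.26), Ndufa5 (-0.04), Ndufs4 (0.01), Ndufv2 (0.03) and Sdhd (0.11), the median of complex II was -0.10 and that of complex V -0.11, and 13 genes were lower in every assay. The cause was not tested. Other pseudocounts, filters and quantile normalization turned no sign of a complex median or of the 23 genes named by the rule. The other genes in the text were not run under these alternatives. Most named genes are far above background and Cox7c is not.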
